A study of Mus musculus with 48 samples.

Results

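The Polycomb complex genes described here are 10 listed mouse genes: Ezh1, Ezh2, Eed, Suz12, Rbbp4, Rbbp7, Jarid2, Cbx7, Cbx8 and Kdm6b. Their members were found by the gene symbol that the platform annotation gives each array probe. Of the 10, 9 had at least 1 probe, with 16 probes in all, out of 16593 named genes and 25697 probes on the array. Rbbp4 had none and was not analysed here. The probe of Jarid2 was not detected above the negative control beads on any of the 48 arrays, so 8 members were tested, all of them detected on every array.

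The arrays came from 24 mice of the FvB/NJ strain, with striatum and cortex of each mouse on separate 1-colour Illumina MouseRef-8 arrays. By genotype (wild-type, BACHD-ΔN17), region and age (2, 7 and 11 months) the arrays form 12 groups of 4 mice, with 2 males and 2 females in each. BACHD mice carry the human gene for mutant huntingtin, the protein of Huntington's disease, on a bacterial artificial chromosome, and ΔN17 marks a version without the N-terminal segment of the protein. The wild-type groups carry no transgene. Levels are given as normalized log2 intensity, on which a difference of 1 is a doubling, and a positive difference between genotypes means a higher level in BACHD-ΔN17 mice. Mice are numbered 1 to 4 within each genotype and age, the numbers only name them, and a mouse has the same number in both regions. A gene was called when its limma p, adjusted by Benjamini-Hochberg over all features tested in that comparison, was under 0.05.

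Polycomb proteins keep developmental genes silent in cells that should not use them. Polycomb repressive complex 2 (PRC2) methylates lysine 27 of histone H3 (H3K27) through EZH2 or EZH1, held by EED and SUZ12 together with the histone-binding proteins RBBP4 and RBBP7, and JARID2 is an accessory subunit that helps to bring the complex to chromatin. Canonical Polycomb repressive complex 1 (PRC1) reads this methylation through the chromodomain of a CBX protein such as CBX7 or CBX8, and KDM6B removes it. EZH2 is best known from dividing cells and EZH1 from cells that have stopped dividing. In neurons of the adult striatum, PRC2 is known to keep genes of other cell types and of early development off.

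Cbx8 was the member that differed most steadily between the genotypes: it was higher in BACHD-ΔN17 mice at 7 and 11 months in both regions, by 1.63 to 1.78-fold, and no wild-type mouse of those ages reached the lowest BACHD-ΔN17 mouse of the same region and age. Ezh2 was lower in BACHD-ΔN17 striatum at both ages, Eed was higher in striatum at 7 months, Suz12 was higher in striatum at 11 months and Cbx7 was higher in cortex at 11 months. No member passed the threshold at 2 months in either region. Ezh1, Rbbp7 and Kdm6b passed in no comparison of the genotypes with their main probe.

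Sequences at an annotated start are shown for Cbx8, Cbx7 and Ezh2. Cbx8 and Cbx7 were chosen as the PRC1 members that differed and Ezh2 as the PRC2 member that differed in the opposite direction. Each window of 300 bases spans an annotated start of the gene, from RefSeq on build GRCm38.p6, read 5′ to 3′ on the gene's strand, with every CpG (a C followed by a G) in capitals. All 3 lie on the minus strand.
Cbx8, chr11:119040864-119041163: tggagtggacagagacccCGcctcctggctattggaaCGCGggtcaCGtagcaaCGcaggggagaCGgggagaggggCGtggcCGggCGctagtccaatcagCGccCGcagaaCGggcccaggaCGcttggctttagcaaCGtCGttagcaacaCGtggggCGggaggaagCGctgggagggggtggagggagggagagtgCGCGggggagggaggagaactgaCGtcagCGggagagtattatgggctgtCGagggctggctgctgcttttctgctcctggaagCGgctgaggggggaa
Cbx7, chr15:79932597-79932896: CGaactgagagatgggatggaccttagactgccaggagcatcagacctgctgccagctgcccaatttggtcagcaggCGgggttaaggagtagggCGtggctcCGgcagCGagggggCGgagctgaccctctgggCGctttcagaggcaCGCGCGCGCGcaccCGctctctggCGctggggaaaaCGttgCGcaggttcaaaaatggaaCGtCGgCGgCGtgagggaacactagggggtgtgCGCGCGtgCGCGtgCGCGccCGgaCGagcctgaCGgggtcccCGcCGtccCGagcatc
Ezh2, chr6:47594981-47595280: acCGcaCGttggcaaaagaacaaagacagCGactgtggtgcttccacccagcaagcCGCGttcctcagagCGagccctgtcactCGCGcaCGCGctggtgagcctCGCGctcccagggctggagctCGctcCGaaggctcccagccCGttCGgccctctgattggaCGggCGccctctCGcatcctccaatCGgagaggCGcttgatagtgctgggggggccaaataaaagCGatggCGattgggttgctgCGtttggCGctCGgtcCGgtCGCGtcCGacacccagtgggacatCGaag

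These windows hold 24 CpGs in Cbx8, 33 in Cbx7 and 31 in Ezh2, where the median of 32851 mouse windows of this length is 7. Windows were found for 9 of the 10 members, with 17 CpGs in Eed, the fewest, and 41 in Suz12, the most. The cAMP response element TGACGTCA, searched on both strands, is in the window of Cbx8 and of no other member, and 1.79% of all windows hold it. The E2F words TTTCCCGC, TTTCGCGC, TTTGGCGC and TTTGGCGG, also searched on both strands, are together in 2.37% of all windows. Among the members, Ezh2 holds TTTGGCGC and Suz12 holds TTTCCCGC. These are matches of letters, which show neither binding nor a cause. On the same build Cbx8 spans bases 119036303 to 119040913 of chromosome 11 and Ezh2 47530274 to 47595270 of chromosome 6. Cbx7 spans 79915804 to 79971143 of chromosome 15, so that its window lies inside the gene. The window of Ezh2 also lies mostly inside its gene, and that of Cbx8 mostly upstream. Eed spans 89954654 to 89980976 of chromosome 7 and Suz12 79993106 to 80034123 of chromosome 11, where Ezh1 and Kdm6b also lie. Jarid2 is on chromosome 13 and Rbbp7 on X.

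At 2 months 0 of 8 members were called in striatum, where 0.00891% of all features were, and 0 of 8 in cortex, where 0% were. At an unadjusted p under 0.05 there was 1 member in striatum and 0 in cortex, where 4.88% and 1.98% of all features were. At 7 months 3 of 8 were called in striatum against 12.6% of all features, and 1 of 8 in cortex against 1.77%. At 11 months the counts were 3 of 8 in striatum against 18.9% and 2 of 8 in cortex against 16.1%. With 8 members, 1 gene moves such a share by 12.5 percentage points, so the counts are descriptions of these genes and not of the complexes. The median difference of the 8 members at 11 months was 0.23 in striatum and 0.28 in cortex, where the medians of all features tested were 0.02 and 0.02. Under scale normalization, in place of quantile normalization, the striatal median turned to -0.07, where that of all features was -0.17, and the cortical median was 0.30.

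**Figure D1:**
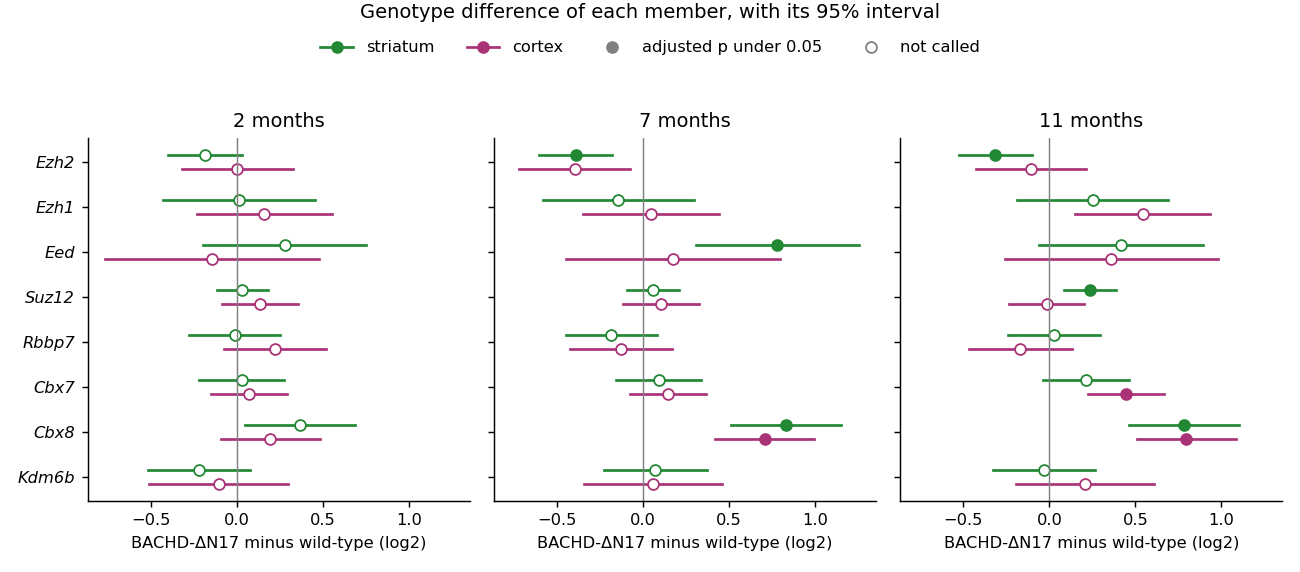
Difference between BACHD-ΔN17 and wild-type mice on the log2 scale (horizontal axis) for the 8 detected members (vertical axis) at 2, 7 and 11 months, in striatum (green) and cortex (purple), with 95% intervals from limma and 4 mice per group. Filled points passed an adjusted p of 0.05: Cbx8 in 4 of the 6 comparisons, Ezh2 in striatum at 7 and 11 months, and Eed, Suz12 and Cbx7 once each.

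Cbx8 encodes a chromodomain subunit of canonical PRC1. In striatum at 7 months its levels were 7.93, 8.61, 8.61 and 8.71 in wild-type mice 1 to 4, and 9.24, 9.17, 9.24 and 9.53 in BACHD-ΔN17 mice 1 to 4. At 11 months they were 8.25, 8.35, 8.23 and 8.13 in wild-type striatum, against 9.07, 8.84, 9.02 and 9.16. The genotypes did not overlap at either age, and wild-type mouse 1 at 7 months lay well below the other 3. The differences were 0.83 (SE 0.16, adjusted p = 0.000512) and 0.78 (SE 0.16, adjusted p = 0.000554), from limma with n = 4 per group. Without the array of wild-type mouse 1 and the other 7 dimmest arrays, the difference at 7 months was 0.65 (adjusted p = 0.00146).

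In cortex at 7 months Cbx8 stood at 8.29, 7.89, 8.07 and 8.31 in wild-type mice and at 9.01, 8.92, 8.60 and 8.86 in BACHD-ΔN17 mice. At 11 months it stood at 7.89, 8.16, 8.38 and 8.08 in wild-type cortex, against 8.69, 8.83, 9.07 and 9.09. Here too each BACHD-ΔN17 mouse was above every wild-type mouse of its age. The differences were 0.71 (SE 0.14, limma adjusted p = 0.00425) at 7 months and 0.79 (SE 0.14, adjusted p = 0.000279) at 11 months. The call at 7 months was lost under scale normalization (0.74, adjusted p = 0.0672) and with internal sample numbers 1 to 32 alone (0.72, adjusted p = 0.144), at about the same size.

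At 2 months the genotypes overlapped, with a mean of 8.68 ± 0.25 in wild-type and 9.05 ± 0.18 in BACHD-ΔN17 striatum (SD, n = 4), a difference of 0.37 (limma adjusted p = 0.99). In cortex the means were 8.31 ± 0.08 and 8.50 ± 0.15, a difference of 0.20 (adjusted p = 1). The change of the genotype difference from 2 to 11 months was 0.41 (95% interval -0.04 to 0.86, adjusted p = 0.313) in striatum and 0.60 (0.19 to 1.01, adjusted p = 0.0902) in cortex, so growth with age was not shown. For this change 0 of 8 members were called in either region, against 6.66% of all features in striatum and 3.97% in cortex. At an unadjusted p under 0.05 there were 0 members in striatum and 2 in cortex, Cbx8 and Cbx7. Of all features 19.3% in striatum and 17.4% in cortex were under that cutoff. Leaving out wild-type mouse 3 at 11 months brought Cbx8 in cortex past the threshold (0.70, adjusted p = 0.0476).

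Averaged over the 3 ages, with 12 mice per genotype, Cbx8 was 1.58-fold higher in striatum (log2 0.66, SE 0.09, limma adjusted p = 3.34e-06) and 1.48-fold higher in cortex (0.57, SE 0.08, adjusted p = 2.40e-05). In this comparison 3 of 8 members were called in striatum (Cbx8, Ezh2 and Eed) against 21.9% of all features, and 2 of 8 in cortex (Cbx8 and Cbx7) against 12% of all features. The 5 highest of the 12 group means of Cbx8 were all of BACHD-ΔN17 mice, from 9.30 in striatum at 7 months to 8.85 in cortex at 7 months. The next was 8.68, in wild-type striatum at 2 months. The 3 lowest, 8.24 in wild-type striatum at 11 months and 8.14 and 8.13 in wild-type cortex at 7 and 11 months, overlapped each other. Each group in this order overlapped the next one.

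**Figure D2:**
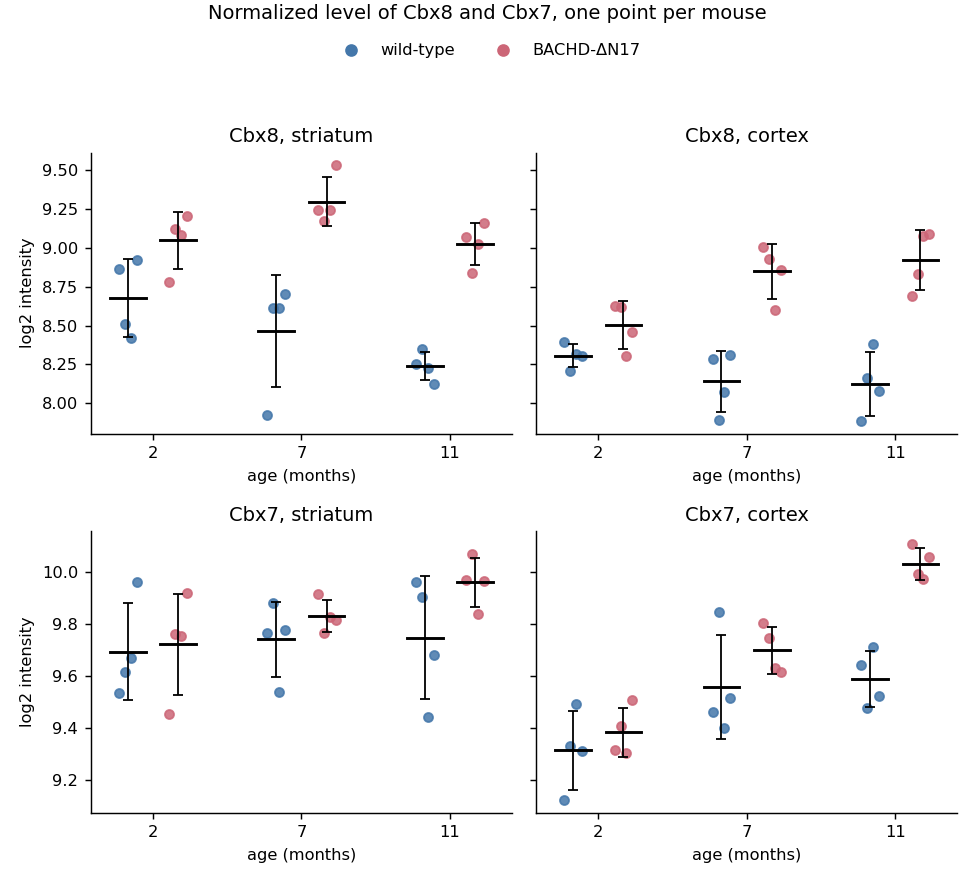
Normalized log2 intensity (vertical axis) of Cbx8 (top) and Cbx7 (bottom) by age in months (horizontal axis), in striatum (left) and cortex (right). Each point is 1 mouse, bars are the mean and SD of 4 mice, and the genotypes of Cbx8 are apart at 7 and 11 months in both regions, while those of Cbx7 are apart only in cortex at 11 months.

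Cbx7, the other chromodomain subunit, is a CBX protein best known from stem cells and from adult tissues. In cortex at 11 months it stood at 9.64, 9.48, 9.71 and 9.52 in wild-type mice and at 10.11, 9.99, 9.97 and 10.06 in BACHD-ΔN17 mice. The groups did not overlap, and the difference was 0.45 (SE 0.11, limma adjusted p = 0.00507, n = 4 per group), or 1.36-fold. The call was lost under scale normalization (0.40, adjusted p = 0.156) and without the 8 dimmest arrays (0.40, adjusted p = 0.142), which leaves 2 mice per genotype. The mean over the ages (0.22, SE 0.06, adjusted p = 0.0198) lost its call in 4 settings, with adjusted p from 0.0819 to 0.295: scale normalization, eights of internal numbers as a factor, numbers 1 to 32 alone, and without the 8 dimmest arrays. In striatum at 11 months the levels overlapped, at 9.75 ± 0.24 against 9.96 ± 0.09 (SD, n = 4), and the difference of 0.21 was not called (adjusted p = 0.247). The difference between the regions in this genotype difference was -0.23 (95% interval -0.53 to 0.07, adjusted p = 0.413), so a difference between cortex and striatum was not shown.

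Ezh2 encodes a methyltransferase of PRC2. Of its 3 probes 2 were detected on 0 of 48 arrays, so its values rest on the third. In striatum at 7 months its levels were 9.51, 9.40, 9.41 and 9.51 in wild-type mice and 9.14, 9.05, 9.06 and 9.01 in BACHD-ΔN17 mice. At 11 months they were 9.43, 9.54, 9.41 and 9.46 in wild-type mice, against 9.07, 9.31, 9.24 and 8.97. All 4 BACHD-ΔN17 mice lay below all 4 wild-type mice at both ages. Ezh2 fell by 0.39 on the log2 scale at 7 months (SE 0.10, limma adjusted p = 0.0124) and by 0.31 at 11 months (SE 0.10, adjusted p = 0.0349), which is 0.762 and 0.805 of the wild-type level. Its difference at 2 months was -0.18 (adjusted p = 0.99) and the mean over the ages was -0.30 (SE 0.06, adjusted p = 0.000598).

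The 7-month call of Ezh2 was lost under scale normalization (-0.42, adjusted p = 0.0696) and with internal sample numbers 1 to 32 alone (-0.40, adjusted p = 0.0622). The 11-month call was lost without a detection filter (adjusted p = 0.0513), with consecutive eights of internal numbers as a factor (-0.39, adjusted p = 0.0615) and with numbers 1 to 32 alone (-0.31, adjusted p = 0.0667). It also went when any of 5 single mice was left out (BACHD-ΔN17 mice 1 and 4, wild-type mice 1, 2 and 4), where the difference was -0.26 to -0.33 with adjusted p from 0.0591 to 0.13. Its direction was the same in each of these, and the mean over the ages stayed called in all 34 alternatives run for it.

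In cortex Ezh2 was lower to begin with. At 7 months it stood at 8.43, 8.69, 8.77 and 8.44 in wild-type mice and at 8.22, 8.38, 8.25 and 7.89 in BACHD-ΔN17 mice, without overlap. This difference of -0.40 (SE 0.16) did not pass (limma adjusted p = 0.283), and at 11 months it was -0.11 (adjusted p = 0.691) with overlapping groups. The genotype difference in striatum did not differ beyond error from that in cortex: the differences between them were 0.01 (95% interval -0.42 to 0.44) at 7 months and -0.21 (-0.64 to 0.22) at 11 months. Across members, this comparison by region called 0 of 8 at 2, 7 and 11 months, where 0%, 1.91% and 5.98% of all features were called. At an unadjusted p under 0.05 there were 0, 0 and 1 members, the last being Suz12 (0.25, adjusted p = 0.197). Of all features 2.86%, 11.4% and 19.4% were under that cutoff.

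Ezh1, the other PRC2 methyltransferase, did not pass in any comparison of the genotypes. Its level was 6.78 to 8.14 over the 48 arrays. In cortex at 11 months it stood at 7.29, 6.91, 7.73 and 7.61 in wild-type mice and at 8.13, 8.01, 7.70 and 7.87 in BACHD-ΔN17 mice. The groups overlapped by 1 mouse of each genotype, and the difference of 0.54 (SE 0.19) lay just outside the threshold (limma adjusted p = 0.0534). It passed without background correction (0.28, adjusted p = 0.0444), with eights of internal numbers as a factor (0.65, adjusted p = 0.0132) and in 7 other alternatives. Among these 7, the authors' values gave the same result as no background correction. Under scale normalization it did not pass (0.54, adjusted p = 0.132). A second Ezh1 probe was detected on 8 arrays and gave -0.10 in cortex at 11 months (adjusted p = 0.818). It did not follow the main probe (r = 0.0622 over 48 arrays).

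**Figure D3:**
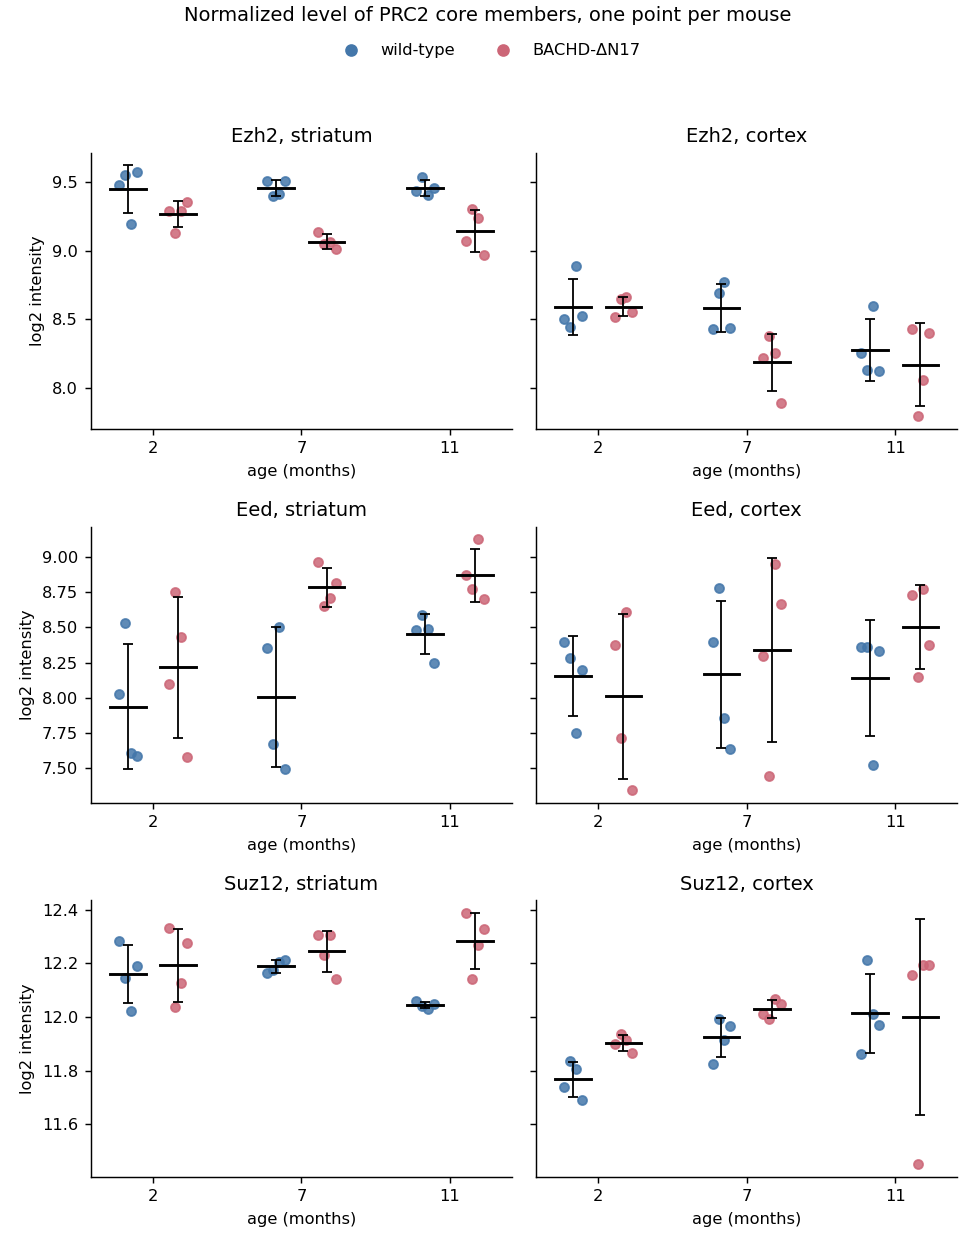
Normalized log2 intensity (vertical axis) of Ezh2, Eed and Suz12 (rows) by age in months (horizontal axis), in striatum (left) and cortex (right), with 1 point per mouse and bars for the mean and SD of 4 mice. Ezh2 is lower in BACHD-ΔN17 striatum at 7 and 11 months without overlap, Eed has wide wild-type spreads at 7 months, and 1 BACHD-ΔN17 cortex at 11 months is far below the others in Suz12.

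Eed encodes the PRC2 subunit that binds methylated H3K27 and stimulates the enzyme. In striatum at 7 months it stood at 8.35, 7.67, 8.50 and 7.49 in wild-type mice and at 8.96, 8.65, 8.70 and 8.81 in BACHD-ΔN17 mice. At 11 months it stood at 8.48, 8.59, 8.49 and 8.25 in wild-type mice, against 8.87, 8.77, 9.12 and 8.70. The genotypes did not overlap at either age, but wild-type mice 2 and 4 at 7 months lay far below the other pair. Their arrays had internal sample numbers 43 and 36, and those of wild-type mice 1 and 3 had 1 and 25. The BACHD-ΔN17 arrays at 7 months had 13, 20, 29 and 31. In the run of numbers 33 to 40, Eed stood at 7.58 in BACHD-ΔN17 and 7.59 in wild-type striatum at 2 months. In cortex it stood there at 7.35 and 7.75 at 2 months, and at 8.37 and 7.52 at 11 months. The genotype difference in striatum was 0.78 (SE 0.23, limma adjusted p = 0.025) at 7 months and 0.42 (SE 0.23, adjusted p = 0.235) at 11 months, and 0.49 (SE 0.13, adjusted p = 0.00816) as the mean over the ages. In cortex its genotype differences were -0.15, 0.17 and 0.36 at 2, 7 and 11 months, with adjusted p from 0.445 to 1.

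The Eed call at 7 months depended on which arrays were used. With eights of internal numbers as a factor the difference was 0.32 (limma adjusted p = 0.219) and with numbers 1 to 32 alone 0.36 (adjusted p = 0.241). It was 0.60 to 0.77 with adjusted p from 0.0676 to 0.122 when 1 of 4 mice was left out (BACHD-ΔN17 mice 1 and 4, wild-type mice 2 and 4). The mean over the ages was also lost in the same 2 settings of internal numbers (0.24, adjusted p = 0.0647, and 0.29, adjusted p = 0.0513).

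Suz12, which holds the PRC2 core together, stood at 11.45 to 12.39 over the 48 arrays. In striatum at 11 months it stood at 12.06, 12.04, 12.03 and 12.05 in wild-type mice and at 12.39, 12.14, 12.27 and 12.33 in BACHD-ΔN17 mice. The wild-type values were close together (SD 0.01), the groups did not overlap, and the difference was 0.24 (SE 0.07, limma adjusted p = 0.023), or 1.18-fold. Its direction depended on the scaling: under scale normalization it was -0.11 (adjusted p = 0.675), where the median of all features was itself -0.17, and relative to that median Suz12 was 0.06 higher. With eights as a factor it was 0.08 (adjusted p = 0.654), and leaving out any of BACHD-ΔN17 mice 1 and 4 and wild-type mice 1 and 3 ended the call (0.21 to 0.24, adjusted p from 0.0537 to 0.0827).

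In cortex Suz12 was higher in all 4 BACHD-ΔN17 mice than in any wild-type mouse at 2 months (11.86 to 11.93 against 11.69 to 11.84) and at 7 months (11.99 to 12.07 against 11.82 to 11.99). These differences of 0.13 and 0.11 did not pass (limma adjusted p = 1 and 0.843). At 11 months the groups overlapped and the difference was -0.02 (adjusted p = 0.942), with BACHD-ΔN17 mouse 2 at 11.45 and the other 3 at 12.15 to 12.19. Mouse 2 was on a dim array, and so was mouse 1 of that group, which lay with the others. Without the 8 dimmest arrays the mean over the ages in cortex was 0.15 and passed (adjusted p = 0.0222). Without BACHD-ΔN17 mouse 2 at 11 months alone it was 0.13 and passed too (adjusted p = 0.0309).

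Rbbp7, a histone-binding subunit of PRC2 and other complexes, is on the X chromosome and stood at 10.13 to 11.35. Its differences between the genotypes ran from -0.18 to 0.22 over the 6 comparisons, with limma adjusted p of at least 0.401. Its 4 probes did not all move alike. Over the 48 arrays, 2 of the other probes followed the main one (r = 0.711 and 0.845) and 1 did not (r = 0.0755). Another probe fell by 0.35 in striatum at 7 months (adjusted p = 0.0328). The one that did not follow fell by 0.48 in cortex at 11 months (adjusted p = 0.0348). Its mean over the ages in cortex was also called (-0.349, adjusted p = 0.0103), so Rbbp7 differed with the probe read. Between males and females the largest difference of a member was 0.13 in striatum (Ezh1) and 0.11 in cortex (Suz12), with adjusted p of 0.999 for both.

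Jarid2 gave no level: its probe lay at 4.73 to 5.57, under the lowest value of a detected probe on an array, which was 5.62 to 6.17. A difference in it was not detectable here. Kdm6b, the demethylase of H3K27, stood at 8.12 to 9.34, with genotype differences from -0.22 to 0.21 and limma adjusted p of at least 0.509. Its second probe, which followed the main one in part (r = 0.42), had differences from -0.46 to 0.40 and also passed in none. The genotypes overlapped in Kdm6b at each age in each region.

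Wild-type striatum and cortex were compared within each of the 12 wild-type mice. Of the 8 members 6 were called, all higher in striatum, against 55.2% of all features called in either direction. Ezh2 was 1.96-fold higher (log2 0.97, SE 0.09, limma adjusted p = 3.59e-11). In wild-type mice it stood at 9.19 to 9.57 in striatum and at 8.12 to 8.89 in cortex, with no overlap. Its 6 striatal groups, both genotypes included, were the 6 highest of the 12, with means from 9.46 in wild-type mice at 11 months down to 9.07 in BACHD-ΔN17 mice at 7 months. The highest cortical mean was 8.59.

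The other region differences were smaller: 0.32 for Kdm6b (limma adjusted p = 0.00292), 0.31 for Rbbp7 (adjusted p = 0.00238), 0.27 for Cbx8 (adjusted p = 0.00858), 0.24 for Cbx7 (adjusted p = 0.000936) and 0.23 for Suz12 (adjusted p = 7.65e-05). Ezh1 (0.10, 95% interval -0.11 to 0.32) and Eed (-0.02, -0.30 to 0.25) did not pass. Rbbp7 changed its direction with the probe that did not follow the main one (-0.31, adjusted p = 0.00976), and Kdm6b lost its call with its second probe (0.01, adjusted p = 0.96). With internal numbers 1 to 32 alone Cbx8 was at 0.10 (adjusted p = 0.605) and Kdm6b at 0.26 (adjusted p = 0.15). Without the 8 dimmest arrays Cbx7 was at 0.15 (adjusted p = 0.0757), and under scale normalization Suz12 was at 0.17 (adjusted p = 0.114).

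**Figure D4:**
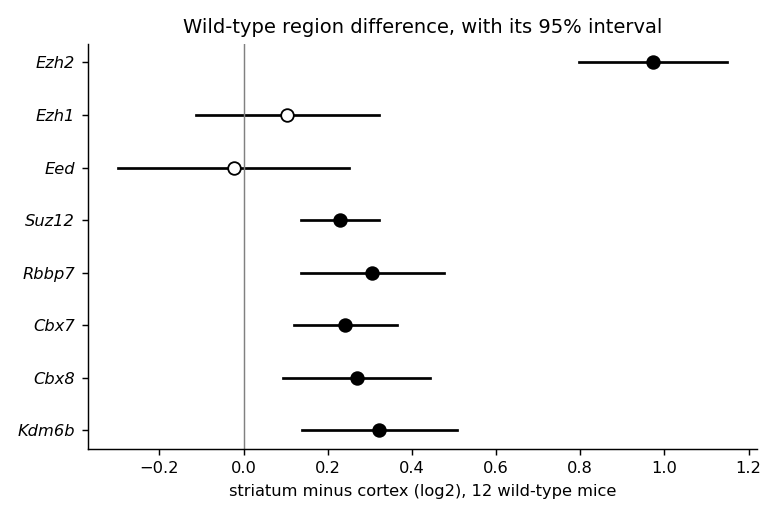
Difference between striatum and cortex on the log2 scale (horizontal axis) in 12 wild-type mice for the 8 detected members (vertical axis), with 95% intervals from limma on within-mouse differences. Filled points passed an adjusted p of 0.05, and Ezh2, at 0.97, stands apart from the others, which lie between -0.02 and 0.32.

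Wild-type mice of 11 and 2 months differed in 0 of 8 members in either region by limma, against 0.134% of all features in striatum and 0.0181% in cortex. The unadjusted p was under 0.05 for 2 of 8 members in each region, against 9.4% of all features in striatum and 8.17% in cortex. The members were Cbx8 (-0.44) and Eed (0.51) in striatum, with adjusted p of 0.395 and 0.49. In cortex they were Cbx7 (0.27) and Suz12 (0.25), with adjusted p of 0.499 and 0.557.

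Of 52 other Polycomb and Trithorax genes listed by function, 41 had a probe and 37 were tested in each region. In striatum 2 rose and 5 fell at 7 months and 4 rose and 6 fell at 11 months, or 18.9% and 27% called where 12.6% and 18.9% of all features were. In cortex 0 rose and 1 fell at 7 months and 4 rose and 2 fell at 11 months, or 2.7% and 16.2% called, near the 1.77% and 16.1% of all features. Their median differences at 11 months were -0.02 in striatum and 0.10 in cortex. Of these 24 calls at 7 and 11 months, 10 held under scale normalization and 14 were lost, none with a turned direction. That scaling moved the median of all features in striatum at 11 months to -0.17. The share of higher genes among all calls there went from 46.2% to 14.1%. In that comparison the 6 falls kept their calls and the 4 rises lost theirs. In striatum at 7 months some falls were kept (Epop, Auts2) and others lost (Scmh1, E2f6, Bap1). In cortex at 11 months the rise of Cbx2 held. The cause was not tested.

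Among PRC2 accessory genes, Epop, whose protein binds PRC2 and elongin, fell furthest. Its mean went from 9.84 in wild-type to 8.95 in BACHD-ΔN17 striatum at 7 months, and from 9.83 to 8.62 at 11 months. In cortex it went from 12.48 to 11.94 at 7 months and from 12.55 to 11.49 at 11 months. Epop fell by 1.20 in striatum (SE 0.14, limma adjusted p = 3.68e-07) and by 1.06 in cortex (SE 0.09, adjusted p = 3.67e-09) at 11 months. At 2 months the means were 10.02 and 10.05 in striatum and 12.67 and 12.63 in cortex, and the change from 2 to 11 months was called in both regions (-1.24, adjusted p = 0.000166, and -1.02, adjusted p = 8.03e-06). It was the only accessory gene called between the genotypes at 7 and 11 months, 1 of 5 tested in striatum (all features 12.6% and 18.9%) and 1 of 4 in cortex (1.77% and 16.1%). Its cortical call at 7 months was lost under scale normalization at about the same size (-0.52, adjusted p = 0.236), and its other 3 calls at 7 and 11 months held. In wild-type mice it was 6.38-fold lower in striatum than in cortex.

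Among the 8 RING and PCGF genes, the catalytic core of PRC1, Bmi1 rose. Its protein is one of the PCGF subunits of canonical PRC1. It rose by 0.45 in striatum at 7 months (limma adjusted p = 0.00356), by 0.54 there at 11 months (adjusted p = 0.000316) and by 0.53 in cortex at 11 months (adjusted p = 0.00728). Pcgf6 rose in striatum (0.39, adjusted p = 0.0295) and Pcgf5 in cortex (0.31, adjusted p = 0.0234) at 11 months, both of them PCGF subunits of variant PRC1. In striatum 1 of 8 was called at 7 months and 2 of 8 at 11 months, against 12.6% and 18.9% of all features. In cortex 0 of 8 and 2 of 8 were called, against 1.77% and 16.1%. None of these 5 calls held under scale normalization, where Bmi1 was at 0.39, 0.31 and 0.50 with adjusted p of 0.133, 0.171 and 0.066. Relative to the median of all features under that scaling, Bmi1 was at 0.45, 0.48 and 0.53, Pcgf6 at 0.31 and Pcgf5 at 0.30.

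Of the other canonical PRC1 genes 5 were tested in striatum and 6 in cortex. In striatum 1 of 5 was called at 7 months and 2 of 5 at 11 months, against 12.6% and 18.9% of all features. In cortex 0 of 6 and 1 of 6 were called, against 1.77% and 16.1%. Scmh1, a sterile alpha motif protein that associates with PRC1, fell in striatum by 0.39 at 7 months (limma adjusted p = 0.0203) and by 0.70 at 11 months (adjusted p = 4.32e-05). Phc1, a polyhomeotic subunit, rose there at 11 months (0.39, adjusted p = 0.00927), though under scale normalization it was at 0.09 (adjusted p = 0.708). Relative to the median of all features under that scaling, Phc1 was at 0.26 and Scmh1 at -0.72 at 11 months. Scmh1 stayed called at 11 months under scale normalization (-0.88, adjusted p = 0.000103) and not at 7 months (-0.43, adjusted p = 0.106). Cbx2, another chromodomain subunit, rose in cortex at 11 months (0.86, adjusted p = 0.0147), but it was detected in 1 of 4 wild-type and 3 of 4 BACHD-ΔN17 mice there, so the size is uncertain. The genotype difference of Scmh1 (-0.69, adjusted p = 0.0101) and of Cbx2 (-1.12, adjusted p = 0.0362, and 0.0852 under scale normalization) also differed between striatum and cortex at 11 months.

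Variant PRC1 genes fell in striatum where they were called: 2 of 8 at 7 months and 4 of 8 at 11 months, and 0 of 8 in cortex at either age, where 12.6% and 18.9% of all features were called in striatum and 1.77% and 16.1% in cortex. At 7 months these were Auts2 (-0.57, limma adjusted p = 0.00109), which held under scale normalization, and E2f6 (-0.28, adjusted p = 0.028), which did not (-0.37, adjusted p = 0.189). At 11 months these were Bcor (-0.48, limma adjusted p = 0.0268), a corepressor of the complex with PCGF1, Auts2 (-0.39, adjusted p = 0.0169), a neuronal subunit, Yaf2 (-0.35, adjusted p = 0.0191), a binder of the RING subunit, and E2f6 (-0.32, adjusted p = 0.00921), a DNA-binding repressor. The 4 calls at 11 months held under scale normalization (-0.60 to -0.61), where the median of all features was itself -0.17. Relative to that median the 4 genes were at -0.43 to -0.44. In cortex Bcor was called as the mean over the ages (-0.39, adjusted p = 0.0141). The test of the difference between regions passed at 11 months for E2f6 (-0.55, adjusted p = 0.00142) and Yaf2 (-0.46, adjusted p = 0.0122, and 0.0618 under scale normalization). It did not pass for Auts2 or Bcor.

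Of 4 tested erasers, Bap1, which removes ubiquitin from histone H2A, fell in striatum at 7 months (-0.40, limma adjusted p = 0.00312) and in cortex at 11 months (-0.37, adjusted p = 0.0246). It was 1 of 4 each time, where 12.6% and 16.1% of all features were called. No eraser was called in striatum at 11 months or in cortex at 7 months. Of 7 Trithorax and COMPASS genes, whose proteins methylate lysine 4 of histone H3 and oppose Polycomb, Dpy30 rose in striatum (0.40, adjusted p = 0.0126, and 0.36, adjusted p = 0.0171, at 7 and 11 months) and Ash2l in cortex at 11 months (0.28, adjusted p = 0.0355). Both belong to the core shared by these complexes. Each of these calls was 1 of 7, or 14.3%, near the 12.6%, 18.9% and 16.1% of all features called. They describe single genes and not the class. None of these calls held under scale normalization. There Bap1 was at -0.48 in striatum (adjusted p = 0.0658) and -0.44 in cortex (adjusted p = 0.127), both larger in size. Dpy30 was at 0.28 and 0.04 at 7 and 11 months (adjusted p = 0.331 and 0.877) and Ash2l at 0.24 (adjusted p = 0.412). Relative to the median of all features under that scaling, Dpy30 was at 0.33 and 0.21 and Ash2l at 0.27.

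As textbook targets of Polycomb, 41 genes with a probe were listed: the Hox genes, with Cdkn2a, Cdkn2b and Cdkn2c. Of these, 11 passed the detection filter in striatum and 14 in cortex. A target silent in wild-type mice passes the filter only when it is on in BACHD-ΔN17 mice, so counts over those that passed support nothing about the list. Hoxc6, for example, was detected in 0 of 4 wild-type and 4 of 4 BACHD-ΔN17 mice at 7 and at 11 months in both regions, and in 0 of 4 mice of either genotype at 2 months. Its mean in cortex at 11 months was 9.11 in BACHD-ΔN17 mice and 4.92, under the lowest detected level of an array, in wild-type mice. Hoxd8 was detected in 4 of 4 BACHD-ΔN17 cortices at 11 months and in no other group. Cdkn2a, Cdkn2b and Cdkn2c, of which Cdkn2a is the best known Polycomb target in dividing cells, were not called at any age in either region.

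Markers of cell types were read in the same arrays, since in bulk tissue fewer cells of a type and less RNA per cell cannot be told apart. The labelled regions held their defining markers: the 6 striatal projection neuron genes with a probe were all higher in wild-type striatum than cortex (median log2 4.71), and both tested cortical excitatory neuron genes were lower (median -5.31). In striatum at 11 months, where Ezh2 was lower and Cbx8 and Suz12 were higher, 6 of 6 projection neuron genes fell. Their summed normalized intensity was 38200 to 41000 in BACHD-ΔN17 and 70200 to 79400 in wild-type mice, and none was undetected in either group. At 7 months 5 of 6 fell, with sums of 44400 to 51200 against 73400 to 76800. Of 4 tested pan-neuronal genes 0 were called in striatum at 7 months and 1 fell at 11 months. The sums of that list at 11 months were 36300 to 41500 against 41700 to 44700, with Snap25 undetected in both groups. Of all features 12.6% and 18.9% were called in striatum at 7 and 11 months.

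In the same striata 3 of 6 astrocyte genes rose at 7 months and 2 of 6 at 11 months. The sums of the list overlapped at 7 months (35300 to 41800 against 32400 to 39000). At 11 months they did not (35500 to 43400 against 33500 to 35400). From wild-type to BACHD-ΔN17 mice at 7 months, the mean of Gfap went from 7.57 to 10.79. The other genes that rose, Aqp4 and S100b, went from 10.92 to 11.45 and from 6.67 to 8.02. Slc1a3 went from 14.25 to 14.20, Gja1 from 13.67 to 13.73 and Aldh1l1 from 8.71 to 8.64. Microglia genes fell in 0 of 4 cases at 7 months and 3 of 4 at 11 months (sums of 2900 to 4180 against 5410 to 5660). Of 5 oligodendrocyte genes 0 were called by genotype in striatum at 7 or 11 months. In wild-type mice 5 of 5 were higher in striatum than cortex (median 1.49), as Ezh2 was. So were 6 of 6 projection neuron and 3 of 4 microglia genes. Of 6 astrocyte genes 1 was higher and 3 were lower, and 3 of 4 pan-neuronal genes were lower. Between these regions 55.2% of all features were called. By genotype, 0 of 4 oligodendrocyte precursor genes and 0 of 3 endothelial genes were called in striatum at 7 or 11 months. In cortex at 11 months, where Cbx8 and Cbx7 rose, 2 of 2 cortical excitatory neuron genes fell (sums of 11500 to 13300 against 14200 to 17200, with Neurod6 undetected in both groups), and 1 of 6 astrocyte genes and 1 of 4 microglia genes fell. Of the 6 projection neuron genes 3 also fell there (sums of 3690 to 4990 against 6840 to 8390). Of 4 pan-neuronal genes 1 fell there (sums of 45700 to 47400 against 49500 to 58400). So did 1 of 4 oligodendrocyte precursor genes, while 0 of 3 endothelial genes were called. Of all features 16.1% were called in cortex at 11 months. Proliferating cell genes, the usual companions of Ezh2, were at or near the detection limit: Top2a was undetected in cortex of both genotypes at 11 months, and the sum of the list was 111 to 248 in the striatal groups of 7 and 11 months. Of the 3 with a probe, Pcna rose in striatum at 7 months (0.83, adjusted p = 0.0242). The part of these cell types in the differences of the members was not tested.

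For each detected member the 3 features with the most similar pattern over the 12 group means were taken from 11573 features. They are descriptions of likeness only, since the group means share mice and arrays. Ezh2 was closest to H2bc14, Dmkn and Ptprv (r = 0.992, 0.985 and 0.984). Cbx8 was closest to an unnamed probe, Trp53bp1 and Aatf (0.952, 0.948 and 0.933), and Cbx7 to Rictor, Peg3 and Dido1 (0.962, 0.962 and 0.957). Eed was closest to Trmt10c, Rps3a1 and Cox4i1 (0.974, 0.963 and 0.958) and Suz12 to Aamp, Tjap1 and Ssr3 (0.979, 0.949 and 0.947). The best match was Ranbp6 for Ezh1 (0.919), Sys1 for Rbbp7 (0.95) and Bfar for Kdm6b (0.951). No member was among the 3 closest features of another.

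Array brightness was uneven, and it was followed through the internal sample number that the labels give each array. Each array detected 12477 to 14378 probes. The 8 arrays with the lowest numbers were the dimmest, with a 90th percentile of raw intensity of at most 1679 where the others had at least 1982, and 4 of them were cortices of 11 months, 2 of each genotype. Within runs of 8 consecutive numbers that held both genotypes, a comparison chosen after seeing the data, Cbx8 was higher in BACHD-ΔN17 mice by 0.71 and 0.74 in cortex at 11 months, by 0.31 and 0.96 in cortex at 7 months and by 0.78 in striatum at 7 months. In the same way Cbx7 was higher by 0.35 and 0.49 in cortex at 11 months, Eed was higher by 0.39 in striatum at 7 months, and Ezh2 differed by -0.34 in striatum at 7 months. No run held both genotypes of striatum at 11 months, so no such value exists there.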

How the data were processed

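Per the labels' protocols, RNA was purified from Trizol lysates on RNeasy columns with DNase digestion, and 100 ng was amplified and biotin-labelled with the TotalPrep kit. The authors deposited, per array, a probe's linear bead intensity, not normalized, and a detection p-value. A second deposited table holds log2 values. Set against the intensities, these were quantile-normalized log2 intensities without background correction (largest difference 5.00e-09). The scanner software is not given in the sources used here.

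Intensities were background-corrected and quantile-normalized by limma's neqc (limma version 3.58.1, R version 4.3.3, offset 16). The probe with the highest mean stood for each gene, which left 18312 features. Features with a detection p below 0.05 on 4 or more arrays of a region were tested there (11225 in striatum, 11047 in cortex, 11573 between regions). Per region, limma was fitted with 6 group means and sex (eBayes with a trend). Region comparisons used within-mouse differences, paired by the labels' mouse names, whose variance trend followed the mean level of the 2 arrays. Sex was also tested. The arrays' number, 4 per group, limits the precision. The fits were tested on simulated data.

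Every member was named with every probe, and up to 4 called genes of each other list per genotype comparison. Members and lists were chosen with earlier results of these data known. Mice were numbered by the accession of their first array. The labels do not say whether mice of a group shared a litter, and p-values measure only the spread between these mice. Genotype labels were not checked against the transgene here. Promoter windows were copied from RefSeq, and symbols were looked up in the mouse reference gene table, which changed 0 of them. Alternatives covered background correction, normalization, the authors' values, the filter, the probe, sex, internal sample numbers, replicate numbers and each mouse left out.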

Additional observations from a re-analysis of the deposited data

Results flagged for a closer look

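In 7 of the 96 groups of 4 mice examined for the 8 members, 1 mouse lay far from the other 3. The gap filled at least 0.835 of the group's range. Chance alone gives about 1 in 20 groups if the values are normal. The members were read on the same arrays, so the groups are not independent. Whether 7 is more than chance was not tested. Of the 7 arrays, 4 were among the 8 dimmest of the series. The part of array brightness in these values was not tested.

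On dim arrays, Cbx8 stood at 7.93 in wild-type striatum at 7 months in mouse 1, against 8.61 to 8.71 in the others. Suz12 stood at 11.45 in BACHD-ΔN17 cortex at 11 months in mouse 2, against 12.15 to 12.19 in the others, of which mouse 1 was on a dim array too. Kdm6b stood at 9.34 in wild-type striatum at 2 months in mouse 1, against 9.00 to 9.05, and at 8.31 in BACHD-ΔN17 striatum at 2 months in mouse 1, against 9.04 to 9.12.

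On other arrays, Eed stood at 7.52 in wild-type cortex at 11 months in mouse 3, against 8.33 to 8.36. Rbbp7 stood at 10.92 in BACHD-ΔN17 cortex at 7 months in mouse 2, against 10.27 to 10.38. Kdm6b stood at 8.31 in BACHD-ΔN17 cortex at 7 months in mouse 1, against 8.78 to 8.87. For no member did the genotype difference differ between regions or change from 2 to 11 months beyond the threshold.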

How the results depend on the processing

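Cbx8 in striatum at 7 and 11 months and in cortex at 11 months kept its call in each of the 18 alternatives run for it, from 0.53 to 1.03 on the log2 scale. The number of called members moved by over 1.5 times as follows. In striatum at 7 months it went from 3 to 1 with internal numbers 1 to 32 only. In striatum at 11 months it went from 3 to 1 with eights as a factor, and was 1 to 3 as each mouse was left out. In cortex at 7 months it went from 1 to 0 under scale normalization and with numbers 1 to 32 only. In cortex at 11 months it went from 2 to 1 under scale normalization and without numbers 1 to 8. Suz12 in striatum at 11 months turned to -0.11 under scale normalization, and Rbbp7 between wild-type regions turned to -0.31 with another probe. For the mean over ages in cortex it went from 2 to 1 under scale normalization, with eights and with numbers 1 to 32, and for the change from 2 to 11 months in cortex it was 0 to 1 as each mouse was left out. The causes were not tested.

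The labels' replicate numbers share only a number: 8 same-numbered pairs had r from -0.37 to 0.04 (median -0.18). As a block they left 0 called members in cortex at 7 months, 1 in cortex at 11 months and 3 of 6 between wild-type regions, where unpaired regions left 6. With the block the calls of Ezh2 in striatum at 11 months (-0.28, adjusted p = 0.209), Eed in striatum at 7 months (0.77, 0.0578), Cbx8 in cortex at 7 months (0.62, 0.0628) and Cbx7 in cortex at 11 months (0.42, 0.0823) were lost, as were those of Cbx8, Rbbp7 and Kdm6b between wild-type regions (adjusted p from 0.0581 to 0.247). At 11 months no wild-type mouse shared its number with a BACHD-ΔN17 mouse, so block and genotype cannot be told apart within that age. The step from the wild-type numbers to the BACHD-ΔN17 numbers was set there by other ages alone. What the block ended between genotypes at 11 months, here or over all features, therefore does not test those calls. Eights could not be used as a factor for within-mouse differences and were not run there.

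Over all features, calls in striatum went at 7 months from 1411 to 708 under scale normalization and 916 with numbers 1 to 32, and at 11 months from 2119 to 1389 with eights and 1035 with the block. In cortex they went at 7 months from 196 to 64 and 71, and at 11 months from 1782 to 710 under scale normalization, 703 without numbers 1 to 8 and 646 with the block. Between regions at 11 months they went from 692 to 414 under scale normalization, 442 with numbers 1 to 32, 88 without numbers 1 to 8 and 178 with the block. At 7 months they went from 221 to 116, 29 with numbers 1 to 32 and 135 with detection on all arrays. The share of higher genes among calls fell under scale normalization from 46.2% to 14.1% in striatum at 11 months, from 42% to 31.5% there at 7 months, from 43.2% to 28.3% in cortex at 11 months and from 48% to 24.9% between regions at 11 months.

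For the change from 2 to 11 months calls went from 748 to 395, 484 and 207 in striatum (eights, numbers 1 to 32, block), and from 439 to 119, 681, 80, 246 and 78 in cortex (scale, eights, numbers 1 to 32, without 1 to 8, block). For the mean over ages in cortex they went from 1323 to 477 (scale) and 539 (numbers 1 to 32). The shares of higher genes went under scale normalization from 46.2% to 21.9% and from 40.3% to 27.3% for the mean over ages in striatum and cortex, and from 35.8% to 14.7% for the change in striatum. Other counts went from 1 to 0 in striatum at 2 months (without 1 to 8), from 15 to 9 between wild-type ages in striatum (numbers 1 to 32), from 2 to 4 and 0 in cortex (no background correction or the authors' values, numbers 1 to 32) and from 0 to 1 between regions at 2 months (numbers 1 to 32). Scale normalization moved the median of all features by over 0.1 in striatum at 11 months (to -0.17), in its change from 2 months (-0.19), between regions at 11 months (-0.15) and between wild-type ages in cortex (-0.12).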
